A study of Mus musculus with 8 samples.

Results

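The interleukin-1 family was followed through single cells of the cortical injury site as 10 genes of the 21848 in the files: the ligands Il1a, Il1b, Il18 and Il33, the receptor antagonist Il1rn, the receptors Il1r1, Il1r2, Il1rap and Il1rl1, and the processing protease Casp1. The members were found in the files by gene symbol, and each symbol matched 1 gene. All 8 libraries came from mice labelled female and of genotype Bl/J6, with a photothrombotic stroke (PT) of the right sensorimotor cortex, taken 6 days after injury together with a rim of spared tissue. Osmotic pumps placed 2 days before PT delivered saline to 4 mice and 2.4 U ancrod per day, a snake venom protease that depletes fibrinogen from blood, to the other 4. Every mouse was injured, so uninjured levels were not measured, and each library was 1 mouse.

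IL-1α and IL-1β, the products of Il1a and Il1b, are ligands of IL-1R1, which signals when it pairs with the accessory protein encoded by Il1rap. The antagonist encoded by Il1rn occupies IL-1R1 without signaling, and IL-1R2, which lacks a signaling domain, acts as a decoy. Il1rl1 encodes ST2, the IL-33 receptor, which also uses the accessory protein. Caspase-1, from Casp1, cleaves the precursors of IL-1β and IL-18 within inflammasomes, so transcript levels do not give the amount of active cytokine. In the injured brain, microglia and infiltrating myeloid cells are known producers and the endothelium is a known responder.

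Droplets with at least 2000 UMIs and less than 20% mitochondrial UMIs were kept, 46216 in all and 5080 to 6277 per mouse, and 2144 were removed as doublets. Total UMIs per library were 97861434 to 122758649 in saline mice and 126682918 to 142139441 in ancrod mice, so the groups did not overlap in depth. Kept libraries shared 3 to 15 barcodes with one another, at most 0.295% of the smaller library. Clusters were named from marker genes without use of the members, and each class carries the ending "-like". Summed markers of its own list were present in every class and mouse. No cluster was named as mature oligodendrocytes, although markers of that class were scored. Levels and shares therefore do not cover that class. Another 5442 cells stayed unnamed, most of them in shallow clusters with microglial markers. Some others stayed unnamed because their leading genes pointed to another class than their best score. They included clusters of 714 and 129 cells that scored best as inflammatory macrophage, and 469 cells that scored best as astrocyte. The first was led by Gal, Gpnmb and Spp1, at a median of 40747.5 UMIs. Levels, shares and ratios of those 2 classes leave these cells out. Levels are CPM, the UMIs of a gene scaled to the UMI total of a class in a mouse, from at least 10 cells. UMIs were counted at the 3′ end of transcripts, so CPM does not scale with transcript length. A class that holds less of a transcript and a class with a smaller share of expressing cells cannot be told apart from CPM, so detection per cell is given beside it.

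Il1a and Il1b lie close together on chromosome 2 of GRCm39, Il1a at chr2:129140291-129152098 and Il1b at chr2:129206490-129213059, both on the minus strand. Il1rn is on the same chromosome at chr2:24226865-24241506, on the plus strand. Il1r2 (chr1:40113239-40164391), Il1r1 (chr1:40264174-40356417) and Il1rl1 (chr1:40468730-40504575) follow each other on the plus strand of chromosome 1. The 250 bases before the start of Il1a, Il1b and Il33 are shown because these ligands marked microglia-like, granulocytic and stromal cells. They are RefSeq promoters of the GRCm38.p6 build, 5′ to 3′, at chr2:129309973-129310222 (minus strand), chr2:129371140-129371389 (minus strand) and chr19:29945540-29945789 (plus strand, 1 of the starts listed for Il33).

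Il1a: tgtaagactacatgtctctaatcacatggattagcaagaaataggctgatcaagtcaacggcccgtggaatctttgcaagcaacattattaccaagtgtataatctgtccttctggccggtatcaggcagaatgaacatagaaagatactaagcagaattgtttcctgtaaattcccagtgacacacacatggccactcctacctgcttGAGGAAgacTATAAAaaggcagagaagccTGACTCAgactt
Il1b: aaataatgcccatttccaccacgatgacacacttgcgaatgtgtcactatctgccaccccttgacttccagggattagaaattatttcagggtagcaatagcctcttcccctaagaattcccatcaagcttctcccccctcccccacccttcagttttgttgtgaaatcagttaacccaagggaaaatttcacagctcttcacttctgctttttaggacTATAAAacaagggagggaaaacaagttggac
Il33: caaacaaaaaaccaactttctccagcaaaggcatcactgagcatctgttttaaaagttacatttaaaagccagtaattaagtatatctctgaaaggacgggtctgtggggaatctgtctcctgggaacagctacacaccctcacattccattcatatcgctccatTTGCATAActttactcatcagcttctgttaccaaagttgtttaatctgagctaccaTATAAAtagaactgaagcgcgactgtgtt

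Capitals mark letters of 4 motifs searched on both strands, and none of these marked runs overlap. The TATA box was searched as TATAAA, the PU.1 motif as GAGGAA, the AP-1 motif as TGANTCA and the C/EBP motif by a core with free letters in its middle, while letters of an interferon and an NF-kappaB motif were searched too and did not mark these windows. All 3 windows held TATAAA, 32, 31 and 29 bases before the start, and TATAAA was found in 12.97% of the 27025 promoters of the same length. The other Il33 window held it 203 bases before the start and that of Il18 175 bases before. No window of the remaining members held it, so the 3 chosen windows give no rate for the family. The Il1a window also held GAGGAA (23.1% of promoters) and TGANTCA (6.87%), and the Il33 window the C/EBP core (9.55%). A match of letters is a description of the window and not a measured binding site.

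**Figure D1:**
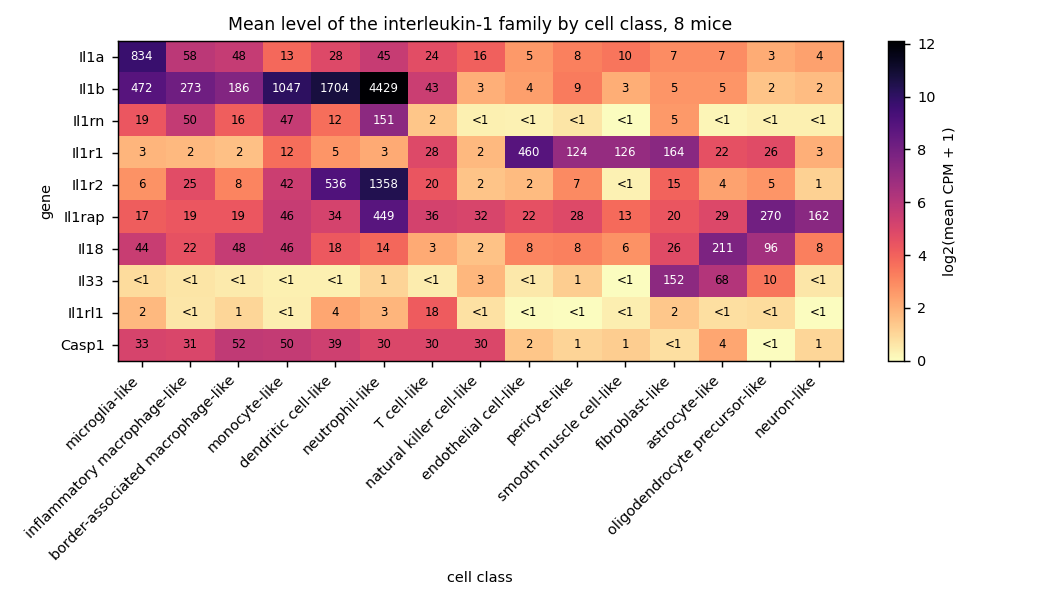
Mean CPM over mice of each member (rows) in each of 15 cell classes (columns), with color as log2(mean CPM + 1) and the mean CPM printed in each cell. Il1a peaks at 834 CPM in microglia-like cells, Il1b at 4429 CPM in neutrophil-like cells, Il1r1 at 460 CPM in endothelial-like cells and Il33 at 152 CPM in fibroblast-like cells.

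Il1a was a microglial transcript at the injury site. Microglia-like cells held 680, 911, 959 and 558 CPM in saline mice and 817, 921, 756 and 1070 CPM in ancrod mice, a mean of 834 ± 165 (SD, n = 8 mice). The next class, inflammatory macrophage-like cells, held 57.5 ± 8.78 CPM (SD, n = 8), and microglia-like cells were higher in 8 of 8 mice (p = 0.0078 by an exact two-sided sign-flip test, the smallest it can give, and adjusted p = 0.068 over 140 neighboring pairs of classes). At least 1 Il1a UMI was found in 88.8% of microglia-like cells, and in 60.0% after thinning every cell to 2000 UMIs. Endothelial-like cells, which served as a background class, gave 6.00% and 1.25%, at median depths of 15632 and 10779 UMIs. Of all Il1a UMIs, 94.6% ± 1.7 (SD, n = 8) came from microglia-like cells.

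Il1b was arranged differently, with its highest levels in neutrophil-like and dendritic-like cells. Neutrophil-like cells held 7770, 4144, 3355 and 4844 CPM in saline mice and 2638, 4179, 4120 and 4383 CPM in ancrod mice. Dendritic-like cells followed with 1704 ± 251 CPM (SD, n = 8), then monocyte-like cells with 1047 ± 322, microglia-like cells with 472 ± 119, inflammatory macrophage-like cells with 273 ± 69.0 and border-associated macrophage-like cells with 186 ± 83.5. Each of the first 4 steps down this order held in 8 of 8 mice (exact sign-flip p = 0.0078, adjusted p = 0.068), and the step between the macrophage classes held in 7 of 8 (p = 0.039, adjusted p = 0.19). After thinning, 89.7% of neutrophil-like, 71.5% of dendritic-like, 58.0% of monocyte-like and 25.5% of microglia-like cells had an Il1b UMI, against 0.761% of endothelial-like cells.

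Level and amount differed for Il1b and for other members. On average, microglia-like cells held the largest share of the UMIs of Il1rn, Il1rap, Il18, Il1rl1 and Casp1. None of these had its highest level there. Microglia-like cells were the most numerous class, 16759 of 44072 cells, and carried 65.0% ± 10 (SD, n = 8) of the Il1b UMIs, dendritic-like cells 11.2% ± 4.6, inflammatory macrophage-like cells 8.12% ± 2.7 and neutrophil-like cells 5.38% ± 3.3. No member had a neighboring pair of classes past the adjusted threshold of 0.05 over all 140 pairs. With classes under 5 CPM left out, 14 pairs passed.

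**Figure D2:**
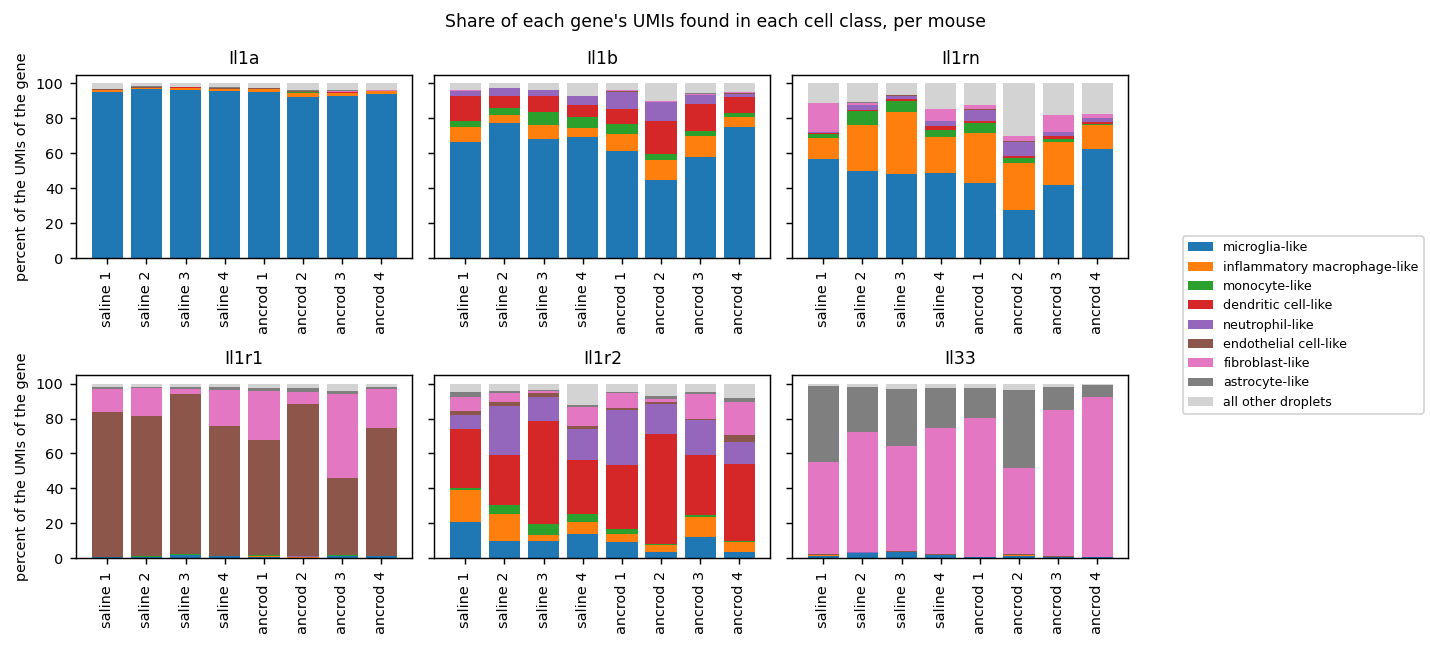
Percent of the UMIs of 6 members found in each cell class (stacked colors) for each of the 8 mice (x axis), with unlisted classes and unnamed cells in grey. Il1a UMIs are nearly all microglia-like (94.6% on average), Il1r1 UMIs are mostly endothelial-like (74.9%) and Il33 UMIs fibroblast-like (69.7%) or astrocyte-like (25.9%).

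Within microglia-like cells, both ligands varied across clusters that had been formed without them. A cluster of 2123 cells led by Olr1, Bcl2a1a, Gpr84 and Cd14 held 1151 ± 44.6 CPM of Il1b (SD, n = 8), whereas 1504 cells led by P3h2 and Tanc2 held 44.2 ± 22.5 CPM, lower in 8 of 8 mice. Il1a ranged from 251 ± 125 CPM (n = 7) in a second cluster led by P3h2 to 1596 ± 213 CPM (n = 8) in a cluster led by Itga5 and Gpr84. Cells led by Cd5l, Igf1 and Lpl held 331 ± 89.1 CPM of Il1a, lower than the Itga5 cluster in 8 of 8 mice. The lowest Il1a mean, 251 CPM, and the Il1b mean of 44.2 CPM were below the levels in droplets of at most 100 UMIs. Such droplets, which hold free RNA, contained 326 CPM of Il1a and 247 CPM of Il1b. The part of free RNA in the cluster levels was not tested. In single microglia-like cells, an Il1b UMI was found in 45.1% of cells with an Il1a UMI and in 17.3% of cells without one, values that also move with the depth of a cell.

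Among neutrophil-like cells, a cluster led by Cxcr2 and G0s2, genes of mature neutrophils, held 5398 ± 1465 CPM of Il1b (SD, n = 8). A cluster led by Camp, Ngp and Ltf, which encode granule proteins of younger neutrophils, held 2306 ± 1348 CPM (n = 4), lower in 4 of 4 mice with enough cells. Dendritic-like cells led by the class II genes H2-Eb1 and H2-Ab1 held 2185 ± 455 CPM (n = 8), and those led by Xcr1 and Clec9a, markers of cross-presenting dendritic cells, held 604 ± 162 CPM (n = 5), lower in 5 of 5 mice. Among border-associated macrophage-like cells, those led by Lyve1 held 77.1 ± 36.6 CPM of Il1b and those led by Mrc1 and Cbr2 held 290 ± 121 CPM, higher in 7 of 8 mice. For Il1a the order of these 2 clusters turned, with 63.0 ± 36.2 against 27.6 ± 15.3 CPM, again in 7 of 8 mice. Both Il1a values lay below the 326 CPM in droplets that hold free RNA. The Il1b value of the Lyve1 cluster lay below their 247 CPM. The part of free RNA in these orders was not tested.

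Il1rn, the antagonist, was highest in neutrophil-like cells at 151 ± 53.9 CPM (SD, n = 8), above the next class in 8 of 8 mice. Inflammatory macrophage-like cells held 50.0 ± 32.4 CPM and monocyte-like cells 47.5 ± 25.3, and these neighbors did not differ beyond their spread (higher in 4 of 8 mice, exact sign-flip p = 0.98). The macrophage clusters differed widely. Cells led by Cd36, Lgals3 and Arg1 held 253 ± 116 CPM of Il1rn (n = 7), whereas those led by Gpnmb and Ms4a7 held 18.2 ± 12.6 CPM (n = 8), lower in 7 of 7 mice. In microglia-like cells Il1rn followed the cluster with high Il1b, with 47.0 ± 10.4 CPM in the Olr1 cluster against 1.41 ± 0.948 in the P3h2 cluster.

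Antagonist UMIs were counted beside ligand UMIs of the same cells, a ratio that is read between classes only. Over all cells, 1.75 to 3.18 Il1rn UMIs were counted per 100 UMIs of Il1a and Il1b together. The ratio ranged over mice from 1.09 to 1.85 in microglia-like cells, from 1.41 to 5.16 in neutrophil-like cells and from 5.23 to 30.2 in inflammatory macrophage-like cells. In microglia-like cells 145 to 222 Il1a UMIs were counted per 100 Il1b UMIs, and in neutrophil-like cells 0.364 to 2.92. The neutrophil ratio rests on few Il1a UMIs, found in 74 of 585 cells. Mean Il1a there was 45.4 CPM, below the 326 CPM in droplets of at most 100 UMIs, which hold free RNA.

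**Figure D3:**
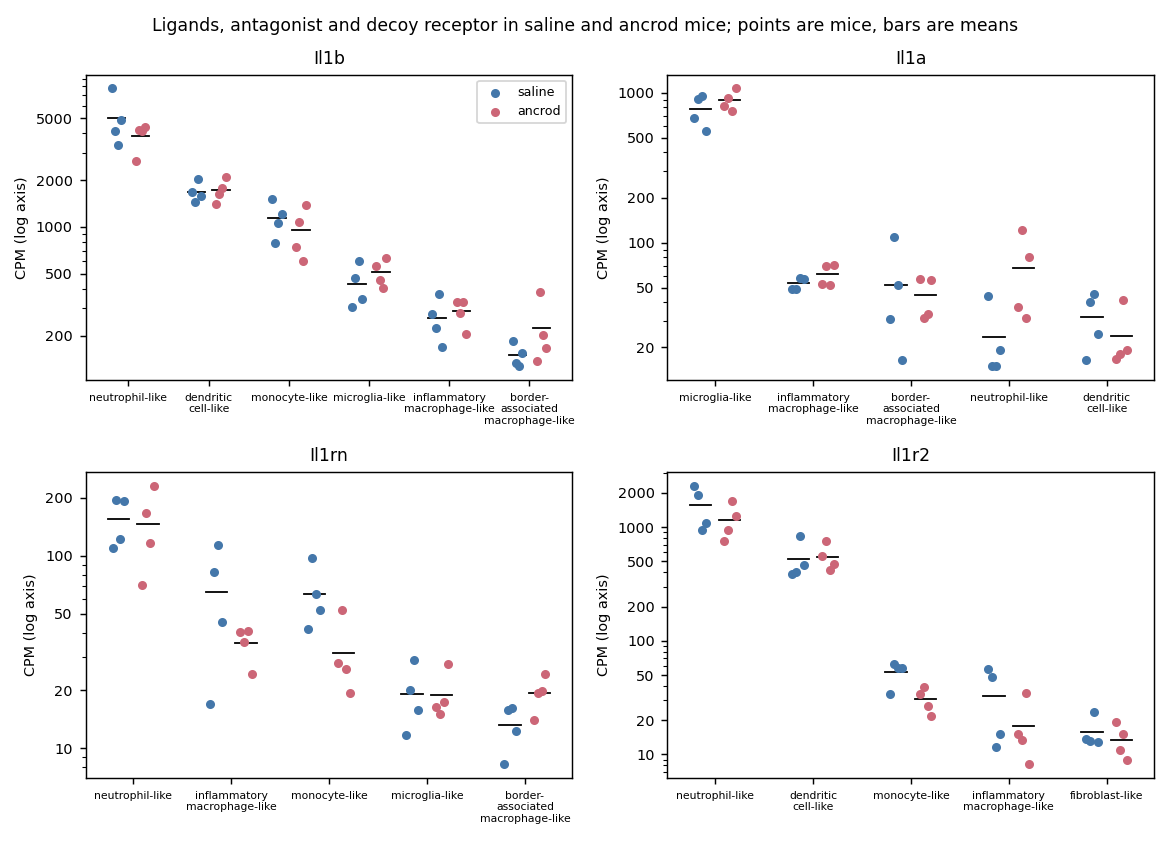
CPM on a log axis of Il1b, Il1a, Il1rn and Il1r2 in their leading cell classes, with 1 point per mouse (saline blue, ancrod red) and a bar at each group mean. Saline and ancrod points overlap, for instance at 3355 to 7770 and 2638 to 4383 CPM for Il1b in neutrophil-like cells.

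The signaling receptor Il1r1 was found on vessel and stromal cells. Endothelial-like cells held 615, 505, 297 and 432 CPM in saline mice and 495, 749, 316 and 271 CPM in ancrod mice, above fibroblast-like cells (164 ± 54.5 CPM, SD, n = 8) in 8 of 8 mice. Fibroblast-like, smooth muscle-like (126 ± 48.0) and pericyte-like cells (124 ± 43.5) did not differ as neighbors (exact sign-flip p = 0.20 and 1). Pericyte-like cells were above the next class, T cell-like cells, in 8 of 8 mice. Microglia-like, inflammatory macrophage-like and border-associated macrophage-like cells were at 2.71, 2.46 and 1.96 CPM. Of all Il1r1 UMIs, 74.9% ± 15 (SD, n = 8) came from endothelial-like and 19.7% ± 14 from fibroblast-like cells.

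Il1r1 was graded along the vessel tree. The cluster led by Ackr1, a chemokine receptor of venules, held 1440 ± 500 CPM (SD, n = 8). A cluster led by Fmo2 and Mecom, with the large-vessel gene Vwf and the capillary gene Slco1a4 among its leading genes, held 864 ± 349 CPM. In contrast, a cluster led by Gkn3, Sema3g and Bmx, genes of arterial endothelium, held 14.9 ± 8.64 CPM, below both in 8 of 8 mice. Clusters led by the capillary genes Slco1a4 and Sema3c held 68.0 ± 37.3 and 23.5 ± 17.8 CPM. The gradient was also seen after thinning to 2000 UMIs, where an Il1r1 UMI was found in 80.1% of Ackr1 cells, 54.5% of Fmo2 cells and 1.73% of Gkn3 cells.

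**Figure D4:**
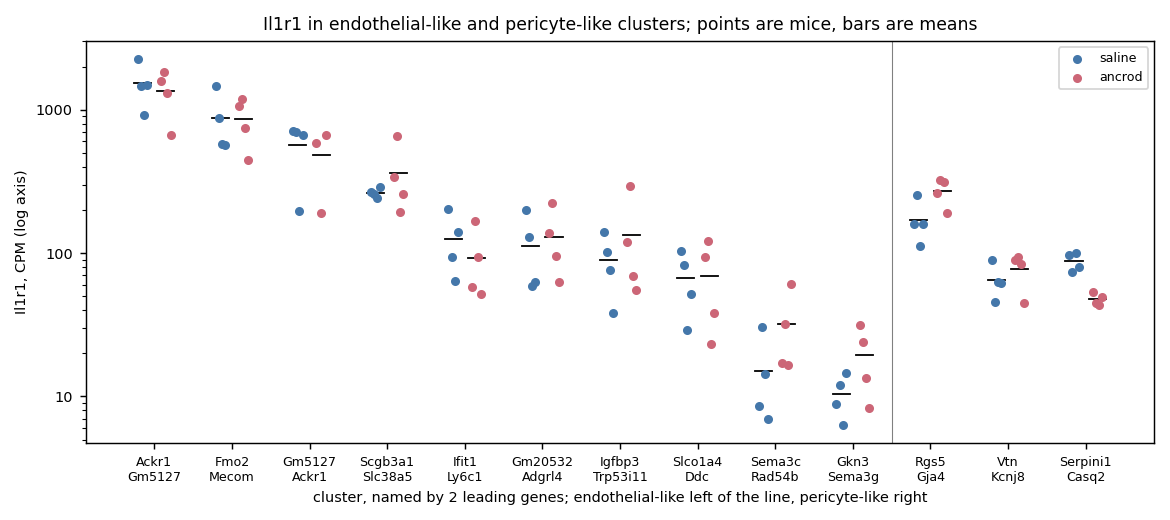
Il1r1 CPM on a log axis in endothelial-like clusters (left of the line) and pericyte-like clusters (right), each named by 2 leading genes, with 1 point per mouse and a bar at each group mean. The Ackr1 cluster lies at 667 to 2255 CPM and the Gkn3 cluster at 6.31 to 31.5 CPM, with no overlap.

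Other receivers were small or partial populations. Fibroblast-like cells led by Cemip and Lama1 held 227 ± 79.3 CPM of Il1r1 (n = 7), while those led by Penk, Ccn3 and Ptgds held 28.2 ± 10.6 CPM (n = 6). A T cell-like cluster of 26 cells led by Scart1, Il23r and Il17a, genes of IL-17-producing T cells, held 142 Il1r1 UMIs in 19 of its cells, 544 CPM over all mice. In the main T cell-like cluster, led by Themis, Ms4a4b and Nkg7, the pooled level was 0.273 CPM. Only 1 mouse gave 10 or more cells of the Il17a cluster, so its level has no spread between mice.

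Il1rap, which both IL-1R1 and ST2 need, was broader. Neutrophil-like cells held 449 ± 280 CPM (SD, n = 8), oligodendrocyte precursor-like cells 270 ± 52.4 (n = 6) and neuron-like cells 162 ± 40.8 (n = 7), and the first pair did not differ beyond its spread (higher in 4 of 6 mice, exact sign-flip p = 0.25). In the remaining classes mean Il1rap was between 12.5 and 45.7 CPM. Endothelial-like cells with an Il1r1 UMI had an Il1rap UMI in 38.2% of cells, against 17.2% of cells without one. These values also move with the depth of a cell, and the median was 38618.5 UMIs in the Ackr1 cluster and 5756.5 in the Slco1a4 cluster. Both transcripts were found together in 15.5% of endothelial-like, 36.1% of fibroblast-like and 24.5% of oligodendrocyte precursor-like cells, at median depths of 10779, 42347 and 15905 UMIs, so these shares cannot be ranked.

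The decoy receptor Il1r2 was highest in the same 2 classes as Il1b. Neutrophil-like cells held 1358 ± 545 CPM (SD, n = 8) and dendritic-like cells 536 ± 168, each above the next class in 8 of 8 mice, and monocyte-like cells held 41.7 ± 15.5 CPM. In neutrophil-like cells 84.5% had UMIs of both Il1b and Il1r2, close to the 83.7% that the product of their separate shares gives. Dendritic-like cells led by H2-Eb1 held 699 ± 197 CPM (n = 8) and those led by Xcr1 held 127 ± 49.7 CPM (n = 5), lower in 5 of 5 mice, the same order as for Il1b. The summed level of 8 neutrophil markers in dendritic-like cells was 18.4 to 3490 CPM in saline and 9.76 to 168 CPM in ancrod mice, and its part in these levels was not tested. Dividing inflammatory macrophage-like cells, led by H1f5, Mki67 and Top2a, held 98.3 ± 73.7 CPM against 2.15 ± 2.09 CPM in a cluster led by Gpnmb and Fbxo32 (8 of 8 mice). Over all cells, 10.5 to 38.8 Il1r2 UMIs were counted per 100 Il1r1 UMIs.

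Il33, an alarmin stored in the nucleus, was stromal and astrocytic among the named classes, which did not include mature oligodendrocytes. Fibroblast-like cells held 128, 146, 193 and 100 CPM in saline mice and 120, 176, 131 and 219 CPM in ancrod mice, above astrocyte-like cells (68.0 ± 6.40 CPM, SD, n = 8) in 8 of 8 mice. Fibroblast-like cells led by Col3a1 and Col8a1 held 221 ± 30.8 CPM (n = 8), whereas those led by Cemip held 38.7 ± 9.84 CPM (n = 7), lower in 7 of 7 mice. For Il1r1 the Cemip cluster was above the Col3a1 cluster in 5 of 7 mice. Among astrocyte-like cells, those led by Ntsr2 and Cldn10 held 72.1 ± 6.03 CPM (n = 8) and those led by Myoc and Thbs4 held 2.62 ± 1.55 CPM (n = 5). Its receptor Il1rl1 was rare everywhere, with 1287 UMIs in all cells. T cell-like cells had the highest mean, 17.5 ± 17.2 CPM (n = 8), and within them a cluster led by Grap2, Ctla4 and Tnfrsf4 held 36.5 ± 43.8 CPM (n = 7), a spread as wide as the mean.

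Il18 was highest in astrocyte-like cells at 211 ± 35.7 CPM (SD, n = 8), then in oligodendrocyte precursor-like cells (95.7 ± 26.6, n = 6), which were lower in 6 of 6 mice (exact sign-flip p = 0.031, the smallest that 6 mice allow, adjusted p = 0.16). Microglia-like cells, lower in level, held the largest share of Il18 UMIs. Astrocyte-like cells led by Gpc5 and Slc7a10 held 316 ± 52.2 CPM and a dividing cluster led by Ckap2 and Pbk held 68.7 ± 9.51 CPM, lower in 8 of 8 mice. Border-associated macrophage-like, monocyte-like and microglia-like cells held 44.1 to 48.4 CPM and did not differ as neighbors. Microglia-like cells led by the interferon response genes Ifit2 and Mx1 held 94.5 ± 13.4 CPM, against 33.8 ± 4.88 in those led by Tnf (8 of 8 mice). Casp1 was flat across immune classes, from 52.0 ± 7.69 CPM in border-associated macrophage-like cells to 29.6 ± 9.19 in natural killer-like cells, and was at most 3.80 CPM in the other classes tested. The step from natural killer-like cells to astrocyte-like cells held in 8 of 8 mice (exact sign-flip p = 0.0078, adjusted p = 0.068).

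The genes with patterns most like the members over the 15 classes were found by Pearson r of mean log2(CPM + 1) among 11919 genes, as a description. For Il1a they included P2ry12 (r = 0.912) and Tnf (0.907), for Il1b they were Csf2rb (0.986), Siglece (0.984) and Themis2 (0.983), and for Il1rn they were Igsf6 (0.964), Cyp4f18 (0.959) and Clec5a (0.956). Il1r1 was closest to Hspg2 (0.947), Pgm5 (0.941) and Ppic (0.938), and Il1r2 to Dhrs9 (0.921), Mcemp1 (0.906) and Klra17 (0.899). Il33 was closest to Efemp1 (0.981), Ecrg4 (0.974) and Olfml1 (0.968), Il18 to Slc12a9 (0.890), C4b (0.872) and Glis3 (0.868), and Casp1 to Tnfaip8l2 (0.980), Arhgap30 (0.978) and Cyth4 (0.976). Il1rap was closest to Usp32 (0.874), Heatr6 (0.857) and Zfyve27 (0.846), and Il1rl1 to Slamf1 (0.896), Cd5 (0.888) and Tnfrsf4 (0.867). All points of a pattern share the same libraries.

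Fibrinogen depletion was compared with saline in each class, with UMIs summed per mouse. By the quasi-likelihood test of edgeR, with p-values adjusted over all genes of a class (Benjamini-Hochberg), 0 of 84 tested combinations of member and class passed (lowest adjusted p = 0.092). Of 150 possible combinations, the other ones had too few UMIs. At an unadjusted p below 0.05 there were 11, of them 6 higher in ancrod mice, which is 13.1% of the combinations against 6.03% of all gene tests in the same classes. DESeq2 called 1, Il1r1 in pericyte-like cells, where it called 33 genes in all, 0.362% of those tested. The background of edgeR calls over all genes was 0% in 12 classes (T cell-like, astrocyte-like, dendritic-like, endothelial-like, inflammatory macrophage-like, microglia-like, monocyte-like, natural killer-like, neuron-like, neutrophil-like, oligodendrocyte precursor-like and smooth muscle-like), 0.0315% in border-associated macrophage-like, 0.00782% in fibroblast-like and 0.121% in pericyte-like cells, and 0.0124% over all cells together. In simulated counts edgeR recovered 84% of genes changed by a log2 fold change of 1 in microglia-like, 78% in pericyte-like, 76% in monocyte-like, 35% in neutrophil-like and 3% in neuron-like cells. There 200 genes were changed at once, which eases the adjusted threshold. The rates therefore do not give the power for a member that changes among few other genes.

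The main sources of ligand showed no detectable difference. Il1a in microglia-like cells gave a log2 fold change (ancrod over saline) of 0.23 ± 0.19 (SE; edgeR adjusted p = 0.93) and Il1b 0.28 ± 0.23 (adjusted p = 0.93). For Il1b the values were -0.41 ± 0.29 in neutrophil-like, 0.02 ± 0.14 in dendritic-like, -0.29 ± 0.24 in monocyte-like and 0.12 ± 0.22 in inflammatory macrophage-like cells, with edgeR adjusted p from 0.87 to 1. The H2-Eb1 cluster, higher in Il1b than the Xcr1 cluster, made up 79.7% to 86.6% of dendritic-like cells in saline and 64.2% to 76.8% in ancrod mice. Its part in the dendritic value was not tested. Endothelial Il1r1 differed by -0.03 ± 0.33 (adjusted p = 0.98), over a class whose clusters took different shares in the groups. The Ackr1 cluster made up 2.82% to 6.34% of endothelial-like cells in saline and 6.51% to 10.3% in ancrod mice, and the Slco1a4 cluster 14.5% to 29.4% and 5.93% to 12.02%. Within the Ackr1 cluster Il1r1 was at 911 to 2255 CPM in saline and 667 to 1843 CPM in ancrod mice. The Ackr1 and Slco1a4 clusters had median depths of 38618.5 and 5756.5 UMIs, while library depth did not overlap between the groups. The shares, and the part of depth in them, were not tested, and the class value does not give the difference within clusters. The treatment effect in microglia-like cells did not differ from that in inflammatory macrophage-like cells for any member. The largest gap was 0.61 on the log2 scale for Il1rn, with p = 0.20 by an exact two-sided permutation test over 70 arrangements of the mice, whose smallest p is 0.029, and adjusted p = 0.94.

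The nearest to a call was Il1r1 in pericyte-like cells, the mural cells of capillaries. Saline mice held 106, 92.3, 80.4 and 93.2 CPM and ancrod mice 194, 179, 146 and 98.3 CPM. Ancrod mice 1 to 3 lay above every saline mouse and ancrod mouse 4 lay within the saline range. The log2 fold change was 0.79 ± 0.17 (SE; edgeR adjusted p = 0.092), and without ancrod replicate 4 it was 0.94 and passed (adjusted p = 0.0079). Over 20 alternatives it lay between 0.63 and 0.94, the adjusted p between 0.0012 and 0.52, and 6 of them called it, DESeq2 among them (adjusted p = 0.030).

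Pericyte-like clusters shifted together with this value. The cluster led by Rgs5 and Gja4, which held 221 ± 77.5 CPM of Il1r1, made up 10.0%, 7.51%, 10.3% and 9.15% of pericyte-like cells in saline mice and 41.3%, 22.9%, 16.8% and 11.8% in ancrod mice. These shares did not overlap. Within that cluster the saline mice held 112 to 253 CPM and the ancrod mice 191 to 324. In the largest pericyte-like cluster, led by Vtn and Kcnj8, the means were 64.8 and 77.8 CPM with overlapping mice, and in the one led by Serpini1 the ancrod mice were lower, 43.5 to 53.8 against 73.9 to 99.5 CPM. The summed level of 8 fibroblast markers in pericyte-like cells was 714 to 966 CPM in saline and 1011 to 1359 CPM in ancrod mice, with 1 marker at 0, and that of 8 endothelial markers was 557 to 1521 and 548 to 662 CPM, with none at 0. The 21 genes of dissociation and immediate early response summed to 4427 to 7320 CPM in saline and 6564 to 11416 CPM in ancrod mice, and 10 of the 20 tested had an unadjusted p below 0.05, all higher in ancrod mice, against 8.43% of all genes in the class. The Rgs5 cluster had a median of 12395.5 UMIs per cell and the Vtn cluster 5020.5, while library depth did not overlap between the groups. The part of these markers, genes and depths in the result was not tested.

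**Figure D5:**
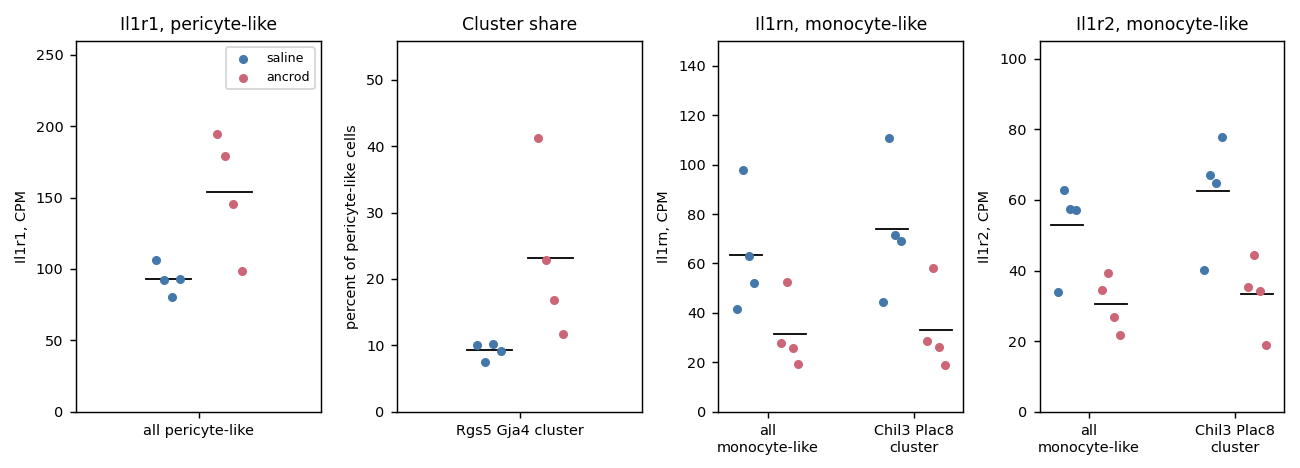
Il1r1 CPM in pericyte-like cells, the percent of pericyte-like cells in the Rgs5 Gja4 cluster, and Il1rn and Il1r2 CPM in monocyte-like cells and their Chil3 Plac8 cluster, with 1 point per mouse, a bar at each group mean and axes from 0. Cluster shares lie at 7.51% to 10.3% in saline and 11.8% to 41.3% in ancrod mice, and the monocyte points of ancrod mice lie mostly under those of saline mice.

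In monocyte-like cells the antagonist and the decoy receptor were both lower in ancrod mice, without passing the adjusted threshold. Il1rn was at 41.6, 97.7, 63.0 and 52.2 CPM in saline and 27.8, 52.6, 25.8 and 19.3 CPM in ancrod mice, a log2 fold change of -1.11 ± 0.29 (SE; edgeR adjusted p = 0.72). Without the filter on low counts the adjusted p was 0.032. Il1r2 was at 34.0, 62.9, 57.3 and 57.2 CPM in saline and 34.3, 39.2, 26.7 and 21.7 CPM in ancrod mice, a log2 fold change of -0.84 ± 0.20 (edgeR adjusted p = 0.62). In each gene 1 or 2 ancrod mice reached into the saline range. Both kept their sign without any 1 mouse, from -1.43 to -0.84 for Il1rn and from -0.95 to -0.78 for Il1r2. In the main monocyte-like cluster, led by Chil3, Plac8 and Ccr2, the means were 74.0 and 33.0 CPM for Il1rn and 62.5 and 33.3 CPM for Il1r2. The 21 genes of dissociation and immediate early response were also lower in ancrod mice in this class, with a median log2 fold change of -0.45 over the 20 tested against 0.01 over all genes, and 13 of them at an unadjusted p below 0.05, 1 of these higher, against 4.52% of all genes in the class. No gene of that list passed by edgeR, and its part in the result was not tested.

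The other combinations at an unadjusted p below 0.05 did not pass either. Il1rn in inflammatory macrophage-like cells was at 16.9, 82.5, 114 and 45.3 CPM in saline and 40.4, 35.6, 40.6 and 24.3 CPM in ancrod mice (log2 fold change -0.92 ± 0.41, edgeR adjusted p = 1.00), and -0.48 without saline replicate 3. The Cd36 cluster, the one high in Il1rn, made up 4.44%, 24.4%, 25.7% and 10.2% of this class in saline and 25.8%, 12.8%, 16.3% and 5.00% in ancrod mice, and its part in the result was not tested. In this class 4 of 21 dissociation genes had an unadjusted p below 0.05 by edgeR, all lower, against 2.76% of all genes. Their part was not tested either. Il1a in neutrophil-like cells was at 44.0, 15.1, 14.96 and 19.2 CPM in saline and 37.0, 122, 31.6 and 79.7 CPM in ancrod mice (1.81 ± 0.54, edgeR adjusted p = 0.82, and 0.017 without the filter on low counts), where saline mouse 1 had 12 cells. Il1r1 in fibroblast-like cells was at 209, 249, 136 and 196 CPM in saline and 164, 136, 155 and 69.2 CPM in ancrod mice (-0.60 ± 0.25, adjusted p = 0.30). The Cemip cluster made up 50.7%, 44.0%, 24.2% and 46.0% of fibroblast-like cells in saline and 36.2%, 25%, 40.8% and 20.3% in ancrod mice, and its part in the result was not tested. Casp1 in border-associated macrophage-like cells differed by -0.32 ± 0.13 (adjusted p = 0.80), and Il1rap in astrocyte-like cells differed by 0.37 ± 0.15 (adjusted p = 1.00). Il1b in fibroblast-like cells (1.58 ± 0.57) and Il1r2 in T cell-like (2.09 ± 0.80) and border-associated macrophage-like cells (1.18 ± 0.50) were each under 20 CPM on average. These 3 values moved to 2.42 without saline replicate 2, to 4.42 without saline replicate 4 and to 0.71 without saline replicate 3.

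Over all kept cells, 0 of 10 members passed by edgeR and 0 by DESeq2, and at an unadjusted p below 0.05 there were 2 (against 17.8% of all genes). Il33 was at 23.7, 16.6, 4.72 and 15.5 CPM in saline and 21.8, 25.8, 37.0 and 55.3 CPM in ancrod mice (log2 fold change 1.20 ± 0.46, edgeR adjusted p = 0.24). Fibroblast-like cells, its highest class, made up 3.11% ± 1.78 of cells in saline and 7.28% ± 4.07 in ancrod mice (SD, n = 4 each, exact permutation p = 0.14), and the level within them differed by 0.23 ± 0.24 on the log2 scale. The part of the cell shares in the Il33 difference was not tested. Il1rap was at 21.9 to 22.7 CPM in saline and 24.5 to 34.7 CPM in ancrod mice (0.31 ± 0.12, edgeR adjusted p = 0.25). The 3 classes highest in Il1rap were neutrophil-like, oligodendrocyte precursor-like and neuron-like cells. They made up 0.69%, 0.26% and 0.40% of cells in saline and 1.92%, 0.43% and 1.62% in ancrod mice on average. Their part in the Il1rap difference was not tested. Endothelial-like cells were 22.0% ± 1.99 of cells in saline and 12.5% ± 4.67 in ancrod mice (exact permutation p = 0.029), and no class share passed after adjustment over 15 classes. As 0.029 is the smallest p this test gives, 1 class alone could not have passed. The share of a member's UMIs in its leading class did not pass for any member, and the lowest were Il1a, Il1rap and Casp1 in microglia-like cells (exact permutation p = 0.029, adjusted p = 0.095), with differences (ancrod minus saline) of -2.48, -12.8 and -9.07 percentage points. Here too 1 member alone could not have passed. Microglia-like cells were 41.5% ± 2.22 of cells in saline and 34.5% ± 6.57 in ancrod mice (exact permutation p = 0.086). The levels within them differed by 0.23, 0.01 and 0.04 on the log2 scale. The part of the cell share in these differences was not tested.

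Around the members, 104 genes were followed in 5 lists, 4 of the pathway and 1 of the 21 genes of dissociation and immediate early response. By edgeR 0 of 999 tested combinations of gene and class passed. DESeq2 called 9, of which 6 were genes of the dissociation list. The 9 lay in 4 classes, in which it called 0.261% (dendritic-like), 1.67% (fibroblast-like), 0.0134% (monocyte-like) and 0.362% (pericyte-like) of all genes. Of genes induced by IL-1, such as chemokines and adhesion molecules, 5 of 11 tested in pericyte-like cells had an unadjusted p below 0.05, all higher in ancrod mice, against 8.43% of all genes in the class, with a median log2 fold change of 0.96, where the median over all genes was -0.004. In astrocyte-like cells 5 of 21 did, all higher, against 3.21% of all genes, with a median of 0.71. In fibroblast-like cells 5 of 25 did, all higher, with a median of 0.37, and 15.1% of all genes did so there. In endothelial-like cells, the class with the most Il1r1, 1 of 22 did, with a median of 0.15, against 10.0% of all genes. Cxcl5, a neutrophil chemokine, and Sele, an adhesion molecule for leukocytes, were the genes of this list that DESeq2 called in fibroblast-like cells, where it called 214 genes in all. Over all cells together 6 of 28 genes of this list had an unadjusted p below 0.05, all higher, against 17.8% of all genes, and DESeq2 called 4, against 5.71% of all genes.

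The dissociation list is given for the same classes, and none of its genes passed by edgeR. In pericyte-like cells its median log2 fold change was 0.47, beside the counts given above. In fibroblast-like cells 7 of 21 had an unadjusted p below 0.05, all higher, with a median of 0.31, and in astrocyte-like cells 0 of 21, with a median of 0.11. In dendritic-like cells 13 of 21 did, all lower, with a median of -0.62, against 6.81% of all genes. Its part in the results of these classes was not tested. Of receptor signaling genes, such as Myd88 and the Irak kinases, 2 of 23 in pericyte-like cells had an unadjusted p below 0.05, a share near the 8.43% of all genes, and 0 of 23 in microglia-like cells. Of inflammasome genes 0 of 16 in microglia-like and 3 of 16 in dendritic-like cells did, all 3 lower, against 4.08% and 6.81% of all genes in these classes. In border-associated macrophage-like cells 3 of 15 did, 1 of them higher, against 5.74% of all genes, and in pericyte-like cells 2 of 7, both higher. Over all cells 10 of 19 inflammasome genes did, 2 of them higher, against 17.8% of all genes, with a median log2 fold change of -0.20. Of further family members, such as Il36g or Il18r1, 1 gene each did in microglia-like (of 6 tested), endothelial-like (of 5) and fibroblast-like cells (of 4), all lower, and 1 of 5 in inflammatory macrophage-like cells, which was higher. Of all genes 4.08%, 10.0%, 15.1% and 2.76% did so in these 4 classes. The fibroblast gene was also called by DESeq2.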

How the data were processed

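The UMI counts deposited by the authors were made with Cell Ranger 7.1.0 and STAR, per the labels and the study's methods, on GRCm39. They are whole-number counts per gene and droplet and were not normalized. The labels give female mice of genotype Bl/J6, whereas the study's methods describe C57BL/6N mice of both sexes. Batch 1 held replicates 1 to 3 of each group and batch 2 replicate 4. Droplets were filtered at 2000 UMIs and 20% mitochondrial UMIs, doublets were removed, and cells were clustered with scanpy 1.11.5 on 3000 variable genes, without the members and the listed pathway genes. Classes were named by marker score, with at least 3 markers detected. UMIs were summed per mouse and class (at least 10 cells, at least 3 mice per group) and tested with edgeR 4.0.16 (quasi-likelihood), with DESeq2 1.42.0 as an alternative, after tests on simulated data. Classes were compared by exact sign-flip tests and shares by exact permutation tests, with Benjamini-Hochberg adjustment. P-values measure the spread between these mice. Named genes were the members, the 3 genes most like each (of those reaching 20 CPM in a class) and list genes called in a class, and 1 gene is not reported here. Leading genes name clusters. Clusters set side by side, and list genes called by DESeq2, were chosen after their values were seen, and their comparison carries no test. The members and lists were chosen with earlier results of these data known.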

Additional observations from a re-analysis of the deposited data

Results flagged for a closer look

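In 7 of 85 groups of 4 mice, 1 mouse lay apart from the other 3 by Dixon's criterion, which chance gives in about 1 in 20 groups. Il1a in neutrophil-like cells was 44.0 CPM in saline mouse 1, which had 12 such cells, and 14.96 to 19.2 CPM in the other saline mice. Il1b in neutrophil-like cells was 2638 CPM in ancrod mouse 1 and 4120 to 4383 CPM in the other ancrod mice. Il1b in fibroblast-like cells was 5.70 CPM in saline mouse 2 against 1.31 to 1.70 CPM. Il1r2 in dendritic-like cells was 833 CPM in saline mouse 3 against 388 to 463 CPM. Il1r2 in T cell-like cells was 19.6 CPM in saline mouse 4 against 0 to 2.12 CPM. Il1rl1 in neutrophil-like cells was 2.49 CPM in saline mouse 3, with 0 in the other saline mice, and 17.7 CPM in ancrod mouse 4, with 0 to 0.617 CPM in the other ancrod mice.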

How the results depend on the processing

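Against 0 members called by class, DESeq2, batch 1 alone, the replicate block and keeping doublets each called 1, no filter on low counts called 3, and leaving out 1 mouse called 0 to 1 (1 without ancrod replicate 4). The single call was Il1r1 in pericyte-like cells each time, where these settings called 0.362%, 0.651%, 0.449%, 0.346% and, without ancrod replicate 4, 0.347% of all genes. Without the filter 1.07% of all genes were called in pericyte-like, 0.566% in neutrophil-like and 0.111% in monocyte-like cells. Against 0 listed genes called (pathway and dissociation lists together), DESeq2 called 9, of which 6 were dissociation genes, no filter 25, batch as a covariate 1, the replicate block 1, thinning to 2000 UMIs 1, and leaving out 1 mouse 0 to 2 (2 without saline replicate 3, 1 without ancrod replicate 3). Apart from DESeq2, these list counts stand without the share of all genes per class and are not read as results on the lists. Of the pairs of classes, 14 passed with classes of at least 5 CPM. Batch 1 alone turned Il1a in microglia-like cells to -0.0085, Il1r1 in endothelial-like cells to 0.14 and Il33 in fibroblast-like cells to -0.14. Thinning turned endothelial Il1r1 to 0.39 and neutrophil Il1rn to 0.017, and naming clusters by score turned the latter to 0.14. Leaving out 1 mouse gave -0.38 to 0.17 for endothelial Il1r1, -0.18 to 0.71 for neutrophil Il1rap and -0.46 to 0.71 for T cell Il1rl1. The causes were not tested. The other 108 summary values and 406 values of single genes kept direction and side of the threshold, and 8 single values passed only under an alternative. Mice numbered 1 to 3 did not deviate together with their namesakes (r from -0.69 to -0.13 over 7403 genes), so the numbers were not taken as pairs. The mice numbered 4, which share batch 2, gave r = 0.35. Mice of different numbers gave up to r = 0.58 (saline 3 with ancrod 1), so 0.35 does not set batch 2 apart. Batch 2 held 1 mouse per group and gives no value alone. Shallow classes such as neutrophil-like cells limit what could be detected.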

Other observations

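An unnamed cluster of 91 cells led by Cxcl3 and Acod1, 3 from saline and 88 from ancrod mice, held 2749 CPM of Il1b, 625 CPM of Il1rn, 481 CPM of Il1r2 and 640 CPM of Il1rap over all mice. Only 1 mouse gave 10 or more of these cells, so no spread can be given.
Droplets of at most 100 UMIs, which hold free RNA, contained on average 326 CPM of Il1a, 247 CPM of Il1b, 55.2 CPM of Il1r1 and 22.4 CPM of Il33. They also held 55.7 CPM of Il18, 21.2 of Casp1, 19.5 of Il1rap, 14.6 of Il1rn, 14.3 of Il1r2 and 1.82 of Il1rl1. For Il18 this is above the 44.1 to 48.4 CPM of border-associated macrophage-like, monocyte-like and microglia-like cells. For Il1a it is above the mean of every tested class except microglia-like cells, the next being 57.5 CPM. The part of free RNA in class levels was not tested.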
